A study of Mus musculus with 12 samples.

Results

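The response of mouse CD4+ T cells to anti-CD3 together with anti-CD28 was measured by RNA sequencing against the same kind of cell without stimulation. The 6 libraries compared are the 3 labelled CD3_CD28 and the 3 labelled Unstimulated, chosen by their labels from the 12 libraries of the series. The genes are the 9826 of 17203 listed with 3 or more of the 12 libraries at a minimum of 10 CPM (counts per 1e6 assigned reads), 57.1% of the table. All cells were primary CD4+ T cells isolated from C57BL/6 mice. Unstimulated cells were freshly isolated and received no activation, and the column names of the deposited table call them naive CD4 cells. CD3_CD28 cells were activated for 72 h with plate-bound anti-CD3 and anti-CD28 in solution. The other groups, CD3 and CD3_CD28_ICOS, entered the filter and the estimate of spread behind the p-values, and are compared directly with CD3_CD28 below. CD3 cells had plate-bound anti-CD3 alone for 72 h. CD3_CD28_ICOS cells were kept for 72 h with antibodies to CD3, CD28 and ICOS, all of them in solution. The sources used here give no age, sex or antibody dose. The series' design text speaks of transduction, which no sample label mentions. Because the unstimulated cells were not cultured, the effects of stimulation and of 72 h in culture cannot be told apart. Whether the libraries of a group come from different animals or cultures is not stated, so the p-values rest on how these libraries vary, possibly for technical reasons alone.

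Anti-CD3 binds the CD3 chains of the T cell receptor complex and so stands in for antigen. Receptor engagement raises intracellular calcium, which activates the phosphatase calcineurin and sends NFAT transcription factors to the nucleus, and it also activates the MAP kinase, AP-1 and NF-kB pathways. CD28 is the main costimulatory receptor of naive T cells. Its engagement adds PI3K, NF-kB and AP-1 signals, supports production of interleukin-2 and survival proteins, and is known for promoting the growth and glycolytic metabolism of T cells that enter division.

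Depth, estimated from the steps between low values in units of 1e6 assigned reads, was 22.5 to 27.4 in the Unstimulated and 22.3 to 25.5 in the CD3_CD28 libraries, so that 1 read was worth 0.0365 to 0.0448 CPM there. Correlations of log2 values across genes between libraries were 0.984 to 0.993 within Unstimulated, 0.987 to 0.992 within CD3_CD28 and 0.6855 to 0.7213 between the groups. A pair of libraries stood apart. CD3_CD28 replicate 1 gave 11.8% of its reads to the ribosomal RNA gene CT010467.1, where the other 5 gave 1.26% to 3.20%. Unstimulated replicate 3 held high levels of early response genes, with Fos at 1275 CPM against 70.7 and 30.9 CPM in replicates 1 and 2. Results that rest on these libraries are given with and without them. Levels are in CPM, which holds no correction for gene length, and each change is a log2 fold change ± SE, CD3_CD28 minus Unstimulated, of values with 1 CPM added, which understates the change of low genes. Levels listed for a group are in the order of replicates 1, 2 and 3. A gene is called, and said to rise or fall, when its Benjamini-Hochberg adjusted p in limma, over all genes tested, is under 0.05.

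The labelled cell type was checked against its markers. All 12 CD4+ T cell markers were tested, and they summed to 7603 to 8287 CPM in Unstimulated and 4344 to 4977 CPM in CD3_CD28 libraries. Of these, 9 fell, among them Cd3g and Trac, and 1, Cd28, rose. Cd4 itself was at 1123, 1165 and 1138 CPM in the Unstimulated libraries and 859, 1018 and 1063 CPM in the CD3_CD28 libraries, lower in each of the latter, and was not called (limma adjusted p = 0.055). It was called at -0.28 under quantile normalization and at -0.29 without CD3_CD28 replicate 3. Cd8a, the CD8 chain gene that CD4+ T cells lack, went from 11.5, 4.12 and 6.86 CPM to 1.71, 1.52 and 1.49 CPM and fell by 1.63 on the log2 scale.

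Most marker lists of other cell types were higher in the fresh libraries. All 14 tested B cell markers fell, with sums of 1376 to 2145 CPM in Unstimulated and 184 to 245 CPM in CD3_CD28 libraries over the 15 genes listed. Igkc, the kappa light chain gene, went from 368, 164 and 217 CPM to 1.58, 1.03 and 1.02 CPM, and Cd79a, part of the B cell receptor, from 35.5, 23.3 and 49.5 CPM to 1.23, 0.671 and 0.392 CPM. Of 13 tested myeloid markers 12 fell and 1, Cd68, rose, and the sums were 371 to 1015 CPM and 30.3 to 32.7 CPM. The lysozyme gene Lyz2 and the adhesion receptor gene Vcam1 were listed at 0 in every CD3_CD28 library. Of the 13, 9 reached the filter only with the Unstimulated libraries and so had to be lower in stimulated cells. The Cd68 call was lost without Unstimulated replicate 2 (limma adjusted p = 0.0925) or 3 (0.106), without CD3_CD28 replicate 2 (0.0865) or 3 (0.0599), and under quantile normalization (0.0584). Pancreatic acinar transcripts summed to 3355, 2851 and 634 CPM in Unstimulated and 1.75 to 2.24 CPM in CD3_CD28 libraries, with Pnlip, Ctrb1 and Amy2a5 listed at 0 in each of the latter. Erythroid and platelet markers summed to 130 to 220.3 CPM and 0.747 to 1.58 CPM. The 17 tested pancreatic genes and the 3 tested erythroid markers, globin genes, were all called lower, but reached the filter only with the Unstimulated libraries, so that their direction was fixed by it. With no filter, 37 of 37 and 12 of 12 listed genes were lower. Of 4 tested CD8 and NK cell markers 2 fell, and the sums of this list overlapped, at 68.8 to 108.2 CPM and 48.6 to 102.1 CPM. Without the filter, 10 of its 12 genes were lower and 0 higher. Stromal and endothelial markers summed to 237 to 358 CPM and 62.8 to 76.8 CPM. Of the 2 tested, Pecam1, an adhesion molecule that leukocytes share, fell from 348, 349 and 231 CPM to 41.1, 61.3 and 43.7 CPM, and Epcam, an epithelial adhesion gene, rose from 5.68, 4.04 and 4.08 CPM to 20.7, 14.9 and 21.6 CPM. The sums of dendritic cell markers went the other way, at 51.6 to 85.3 CPM and 371 to 439.5 CPM, mostly through Irf8. Without the filter, 3 of the 10 dendritic genes in the table were higher and 5 lower. Of the 2 tested, Irf8, a factor that activated T cells express too, rose from 35.9, 19.1 and 28.1 CPM to 336, 390.1 and 329.8 CPM, and Bst2 was not called. The dendritic genes Xcr1 and Itgax stayed below the level tested, at 1.42, 0.656 and 0.869 CPM and 8.42, 3.30 and 4.57 CPM in Unstimulated, with Xcr1 listed at 0 and Itgax at 0.132, 0 and 0.0784 CPM in CD3_CD28 libraries. In bulk RNA, fewer cells of a type and less RNA per cell cannot be told apart. The part of these cells in the changes described below was not tested.

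**Figure D1:**
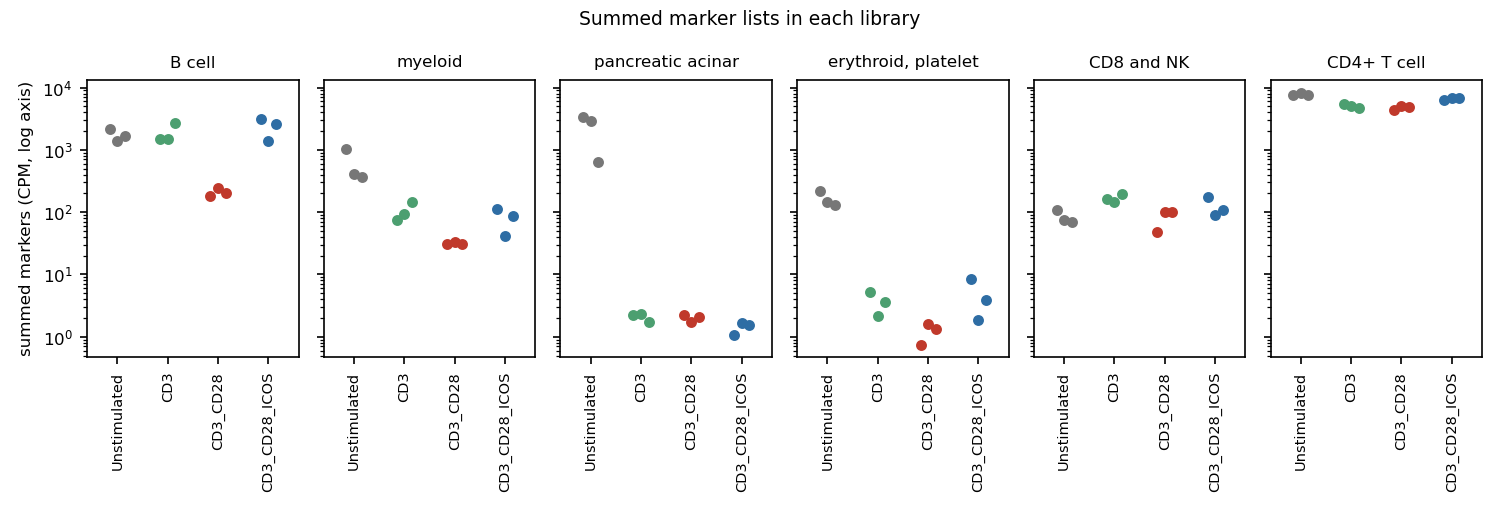
Summed level of 6 marker lists (CPM, log axis) in each of the 12 libraries, 1 point per library, coloured by group. B cell markers are at 184 to 245 CPM in the CD3_CD28 libraries and at 1376 CPM or more in every library of the other groups, while myeloid, pancreatic and erythroid sums are lower in all stimulated libraries than in the Unstimulated ones.

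Most of the tested genes moved. Of the 9826 genes, 3545 were higher in CD3_CD28 cells, 36.1%, and 3846 lower, 39.1%. By at least 1 log2 unit, 1592 were higher (16.2%) and 1445 lower (14.7%). In 7535 genes, 76.7%, all 3 values of one group lay above those of the other. The median over all genes was -0.04. These shares are the background against which each list below is read. A member that reached the filter only with stimulated libraries had little room to be lower, which was so for 27 of 30 mitosis genes, 13 of 32 DNA replication genes, 10 of 23 cell cycle control genes, 10 of 21 p53 targets, 10 of 30 ATF4, serine and one-carbon genes, 7 of 27 glycolysis genes, 7 of 14 inhibitory receptor genes, 5 of 10 TH2 genes, 5 of 14 regulatory T cell genes, 5 of 15 BCL2 family genes and 5 of 31 cholesterol and fatty acid genes. The same held for 7 of 16 secreted cytokine genes, 4 of 9 TH1 genes, 5 of 25 redox genes and 3 of 10 cytotoxic granule genes. It also held for 4 of 17 EGR, NR4A and DUSP, 3 of 12 AP-1 and 3 of 16 costimulatory receptor genes, and for 4 of 22 chemokine and 4 of 23 cytokine receptor genes. Several other lists held 1 to 3 such members. Members that reached the filter only with Unstimulated libraries had, in turn, little room to be higher. Outside the marker lists, they were 3 of 23 IRF and interferon response genes and 2 of 12 AP-1 genes. A further 1 each was in the activation, cytokine receptor, TH1, TH2, inhibitory receptor and anergy lists. The same was so for the cytotoxic granule, chemokine receptor, sterol efflux and PI3K lists. Counts and medians of lists with such members describe the members and are no support for a direction. The same applies to single genes of this kind, the 15 largest log2 rises named below among them. The authors' deposited table, from their own model, holds 2722 genes higher and 2891 lower at a false discovery rate under 0.05 among the 17144 with one, and 2315 and 2385 of the genes tested here.

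**Figure D2:**
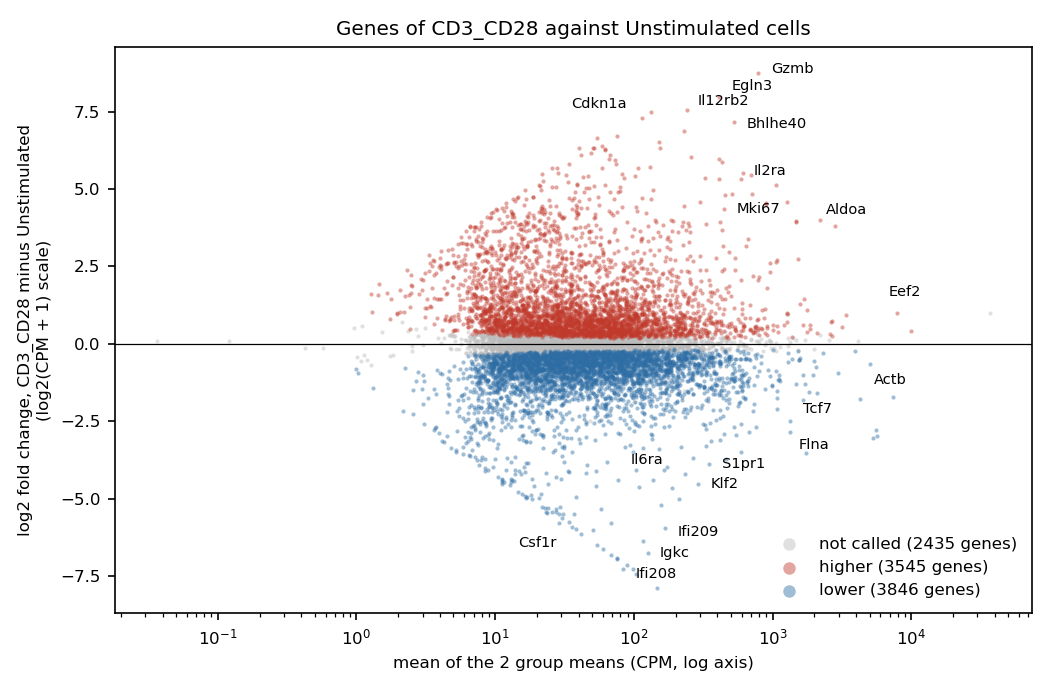
Log2 fold change of CD3_CD28 minus Unstimulated (log2(CPM + 1) scale) against the mean of both group means (CPM, log axis) for 9826 genes, 1 point per gene. Red points are the 3545 genes called higher, blue points the 3846 called lower and grey points were not called, with Gzmb highest and Ifi208 among the lowest.

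Among the named rises the granzyme gene stood first. Gzmb (chromosome 14, 56258838 to 56262260, minus strand, protein-coding; mm10), which encodes the cytotoxic protease granzyme B, was at 3.51, 1.46 and 3.30 CPM in the Unstimulated libraries and 1298, 1669 and 1769 CPM in the CD3_CD28 libraries. The groups lay far apart, with means that differed 573-fold and a difference of 8.75 ± 0.32 on the log2 scale (limma adjusted p = 1.66e-09). Gzmb and every other gene named in this paragraph reached the filter only with stimulated libraries and so had little room to be lower. Quantile normalization shrank the large rises: the change of Gzmb became 7.99, and over the 59 genes called higher by at least 5 log2 units the median shift was -0.51. Il12rb2 (chromosome 6, 67291318 to 67376188, minus strand, protein-coding), the signalling chain of the interleukin-12 receptor, rose from 1.71, 1.09 and 1.96 CPM to 514, 470.1 and 472 CPM. Bhlhe40, a transcription factor of activated T cells, rose from 6.35, 2.88 and 12.3 CPM to 1010.1, 1208 and 937 CPM. Zbtb32, a zinc finger repressor, rose from 0.266, 0.474 and 0.130 CPM to 100.2, 83.6 and 126 CPM. All 3 had a lowest CD3_CD28 value far above their highest Unstimulated value. Vldlr, a lipoprotein receptor gene, rose by 6.63 ± 0.69, Tg, the thyroglobulin gene, by 7.28 ± 0.25, Lama5, a laminin chain gene, by 6.33 ± 0.24 and Mt2, a metallothionein gene, by 6.39 ± 0.33. Nos2, the inducible nitric oxide synthase gene, was listed at 0 in every Unstimulated library and was at 71.3, 101 and 68.5 CPM in CD3_CD28.

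The named genes with the largest gains in CPM, rather than in folds, had several roles. Aldoa, the aldolase of glycolysis, went from 367, 387 and 367 CPM to 5004, 5481 and 5233 CPM, and Eef2, an elongation factor, from 5187, 5012 and 5426 CPM to 10209, 10613 and 10519 CPM. The other named gains in CPM were those of Eef1a1, Scd2, Pkm, Slc2a3, Hsp90ab1, Pgk1-rs7, Ldha and Tubb5. Pgk1-rs7 is a related-sequence copy of the phosphoglycerate kinase gene Pgk1, and genes with such copies (Aldoa, Eef1a1, Actb, the metallothioneins, globins, granzymes and Ifi200 genes among them) are uncertain because the counting could split their reads. Among the largest losses in CPM were those of Flna, Tcf7, Shisa5, Myh9, Ets1, Msn, H2-K1, Ptprc and Actb. Flna, the actin crosslinker filamin A, went from 2125, 2294 and 2637 CPM to 301, 296 and 384 CPM. Under quantile normalization the loss of Actb was no longer called, with a log2 fold change of -0.05 in place of -0.64, while the change of Eef1a1 was 1.06 in place of 0.41.

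**Figure D3:**
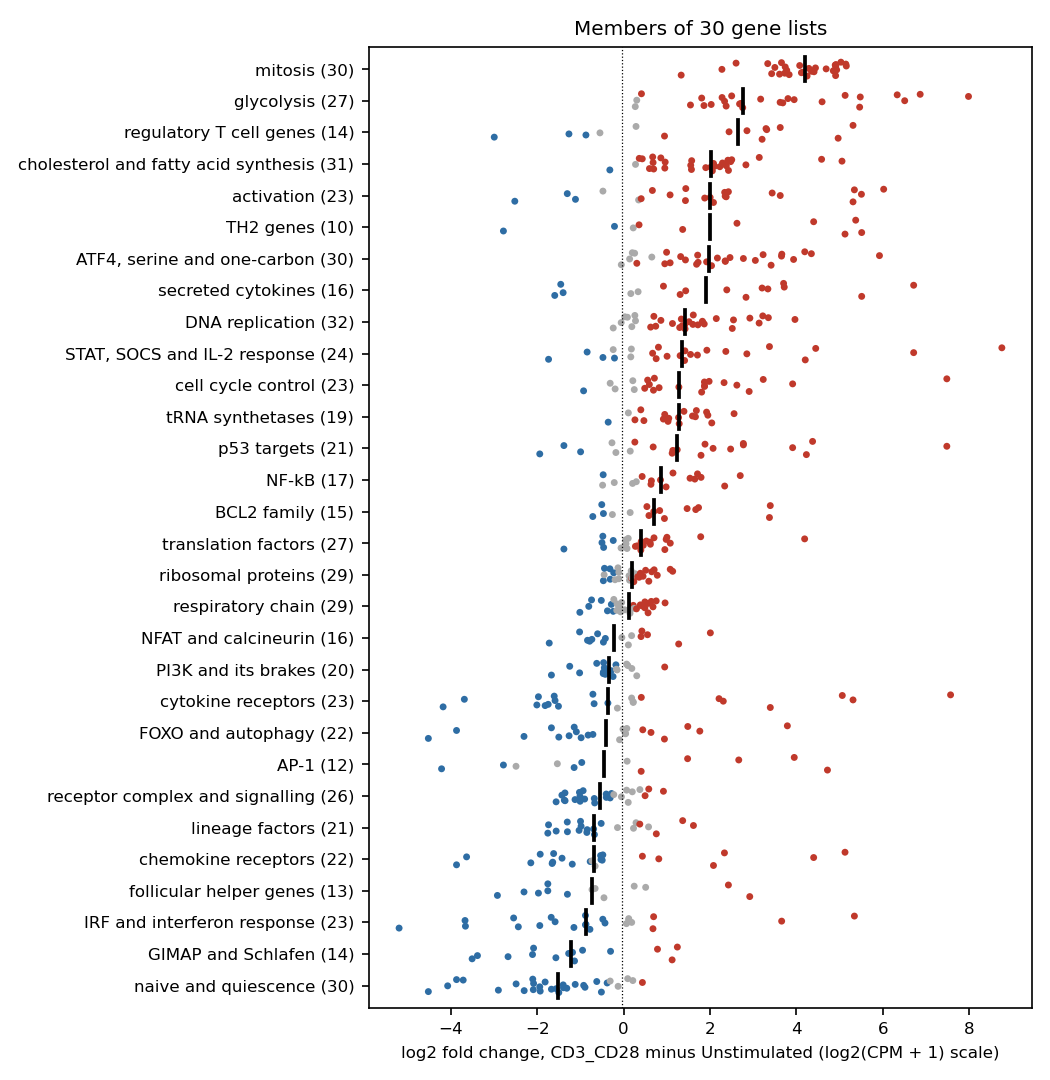
Log2 fold change of each tested member of 30 gene lists (points; red called higher, blue called lower, grey not called) with the median of each list as a black bar and the number tested in brackets; the dotted line is the median of all genes. Mitosis lies highest with a median of 4.20 and naive and quiescence genes lowest with -1.53.

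Most genes of the activated state rose. Of 23 activation genes 18 rose and 3 fell, with a median of 2.01. Il2ra (chromosome 2, 11642807 to 11693193, plus strand, protein-coding), the high-affinity interleukin-2 receptor chain CD25, was at 36.5, 23.4 and 25.2 CPM in the Unstimulated libraries and 1251, 971 and 1230.4 CPM in the CD3_CD28 libraries, a difference of 5.31 ± 0.14 on the log2 scale (limma adjusted p = 1.32e-11). Every CD3_CD28 value was far above every Unstimulated one. Tnfrsf4, the costimulatory receptor OX40, rose from 8.22, 5.83 and 6.60 CPM to 461, 602 and 468 CPM, and Tnfrsf9, the receptor 4-1BB, from 29.8, 25.9 and 20.9 CPM to 1262, 1090.1 and 1228 CPM. Irf4, a transcription factor of activated lymphocytes, rose from 17.0, 11.2 and 16.4 CPM to 719, 533 and 662 CPM. Myc, the growth factor-responsive transcription factor, rose from 101, 98.5 and 123 CPM to 256, 309 and 316 CPM, a smaller change of 1.44 ± 0.13. The activation gene with the largest fall was Il1rl2, a receptor of the interleukin-1 family, at -2.52.

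Costimulatory receptors, of the CD28 and other families, did not move as 1 group. Of 16 costimulatory receptor genes 8 rose and 5 fell, with a median of 0.42. Without Unstimulated replicate 3, 7 rose and 6 fell, with a median of 0.22. Cd28 itself was at 336, 342 and 285 CPM in the Unstimulated libraries and 420.4, 509 and 467 CPM in the CD3_CD28 libraries and rose by 0.53 ± 0.10 (limma adjusted p = 0.000237). Ctla4, the inhibitory receptor that shares ligands with CD28, rose from 8.88, 4.59 and 9.99 CPM to 325, 267 and 211 CPM. Icos, a further CD28 relative, rose from 49.6, 41.7 and 37.0 CPM to 230.1, 216 and 253 CPM. For each of these 3 the groups did not overlap. Pdcd1, which encodes the inhibitory receptor PD-1, was at 13.2, 7.50 and 4.87 CPM in the Unstimulated libraries and 11.9, 9.94 and 13.5 CPM in the CD3_CD28 libraries and was not called, its change being 0.51 ± 0.32 (limma adjusted p = 0.165). The groups overlapped, and without Unstimulated replicate 1 the change was called at 0.85 (limma adjusted p = 0.0218). Slamf6, a receptor of the SLAM family, fell from 148, 146 and 127 CPM to 12.7, 22.02 and 19.6 CPM. In the list of inhibitory receptors and exhaustion, 6 of 14 rose and 5 fell, beside 36.1% and 39.1% of all genes tested. Lag3, a receptor that binds MHC class II, was up by 5.67 ± 0.25 and Cd200r1 was at -2.87.

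The receptor complex and its proximal signalling genes mostly fell. The list holds 26 tested genes, of which 17 fell and 3 rose (median -0.53). Cd3e, a signalling chain of CD3, was at 567, 534 and 484 CPM in the Unstimulated libraries and 177, 224 and 212 CPM in the CD3_CD28 libraries, a difference of -1.37 ± 0.10 on the log2 scale (limma adjusted p = 2.03e-08). Prkcq, the kinase PKC theta that links the receptor to NF-kB, went from 537, 549 and 489 CPM to 189, 186 and 209 CPM, and Txk, a TEC family kinase, from 148, 152 and 128 CPM to 32.7, 62.3 and 52.6 CPM. The 3 rises were Malt1 at 0.92 ± 0.09, a protease of the same NF-kB branch, and Zap70 and Ptpn22. Under quantile normalization 6 of the 26 rose and 17 fell. Rasgrp2, an activator of the integrin-regulating GTPase RAP1, was among the largest falls named, from 207, 212 and 212 CPM to 6.33, 7.81 and 9.14 CPM. Of 20 PI3K pathway genes 13 fell and 1, the catalytic subunit gene Pik3cg, rose. Pik3ip1, an inhibitor of PI3K, fell by 1.67 and Pik3r5 by 1.25 on the log2 scale.

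The NFAT genes, which the title of the series concerns, moved little or in both directions. Nfatc1, which encodes NFAT2, was at 253, 219.5 and 241 CPM in the Unstimulated libraries and 219, 273 and 283 CPM in the CD3_CD28 libraries and was not called, its change being 0.11 ± 0.11 with overlapping groups (limma adjusted p = 0.366). Nfatc2 was at 149.6, 155 and 151 CPM in the Unstimulated libraries and 172, 169 and 178 CPM in the CD3_CD28 libraries and was not called either, although its groups did not overlap (0.19 ± 0.11, limma adjusted p = 0.138). Nfatc3 fell from 476, 533 and 509 CPM to 285, 392.1 and 330.4 CPM. Nfat5, the calcineurin-independent member that responds to osmotic stress, rose from 105, 97.0 and 99.0 CPM to 386, 406 and 431 CPM, a change of 2.01 ± 0.10. Over the whole list of NFAT and calcineurin genes, 5 of 16 rose and 8 fell, with a median of -0.23. Ppp3ca, a catalytic subunit of calcineurin, fell by 1.72, Cabin1, a calcineurin inhibitor, by 1.02, and Stim1, a calcium sensor of the endoplasmic reticulum, by 0.83 on the log2 scale.

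AP-1 dimers are built from FOS, JUN, BATF and related proteins. The 12 tested genes of this list split into 5 that rose and 4 that fell, beside 36.1% and 39.1% of all genes. Fosl2 rose from 13.5, 10.3 and 31.6 CPM to 266, 322 and 226 CPM and Atf3, a stress-induced member, from 0.933, 0.255 and 5.60 CPM to 72.9, 71.3 and 53.7 CPM (4.72, or 5.41 without Unstimulated replicate 3). Jdp2, a repressor that pairs with JUN, rose by 2.67 ± 0.21. Their CD3_CD28 values all lay above the highest Unstimulated value. Fos itself was at 70.7, 30.9 and 1275 CPM in the Unstimulated libraries and 3.605, 10.7 and 7.53 CPM in the CD3_CD28 libraries, a difference of -4.21 ± 1.12 on the log2 scale (limma adjusted p = 0.00707). It was -2.63 without Unstimulated replicate 3 and -5.29 without replicate 2, and was not called when only these 6 libraries were fitted (limma adjusted p = 0.0746). Jun was at 72.0, 45.8 and 1094 CPM in the Unstimulated libraries and 41.9, 59.7 and 58.4 CPM in the CD3_CD28 libraries and was not called. Its change of -1.53 became -0.12 without Unstimulated replicate 3, and was called at -2.40 without Unstimulated replicate 2. Junb was at 232, 161 and 1790.3 CPM in the Unstimulated libraries and 411, 472 and 412 CPM in the CD3_CD28 libraries. It was not called with all libraries (0.08) and was called higher by 1.15 without Unstimulated replicate 3 (limma adjusted p = 6.26e-05). Fosb was not called at -2.49. Without Unstimulated replicate 3 it was not called either, at -1.08 (limma adjusted p = 0.12), or -0.72 with CD3_CD28 replicate 1 left out too. It was called at -3.55 without Unstimulated replicate 2 and at -2.54 under quantile normalization. Jund fell by 0.97 on the log2 scale (-0.46 without Unstimulated replicate 3), a call lost without CD3_CD28 replicate 2 (limma adjusted p = 0.0656) and with only these 6 libraries fitted (0.141). Batf, the partner of IRF4, was at 33.8, 29.0 and 26.8 CPM in the Unstimulated libraries and 53.4, 32.4 and 36.3 CPM in the CD3_CD28 libraries and was called at 0.41 ± 0.17 with overlapping groups. The Batf call was lost without Unstimulated replicate 2 or 3 (limma adjusted p = 0.0894 and 0.126), without CD3_CD28 replicate 1 (0.217) and under quantile normalization (0.0795). The median of the AP-1 list was -0.44 with all libraries, and -0.75, -0.91 and 0.11 without Unstimulated replicate 1, 2 or 3. Without Unstimulated replicate 2, 4 rose and 6 fell, and with only these 6 libraries fitted 5 rose and 2 fell.

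**Figure D4:**
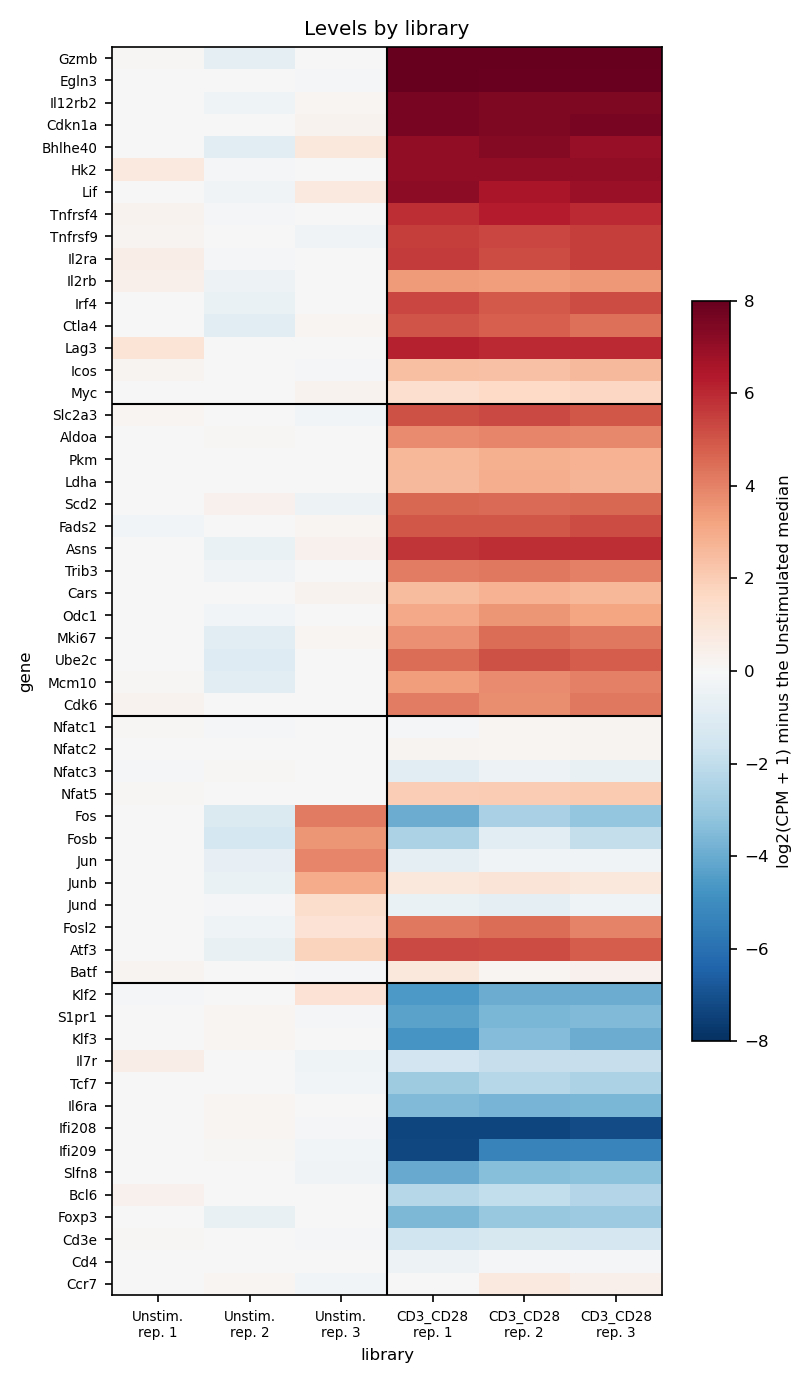
Levels of 56 genes (rows) in the 6 libraries (columns) as log2(CPM + 1) minus the median of the Unstimulated libraries, red higher and blue lower. Fos, Fosb, Jun and Junb are red in Unstimulated replicate 3, while the genes of the upper 2 blocks are red in the CD3_CD28 libraries.

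The NF-kB genes were more often higher, and the balance of other immediate response genes changed with the libraries used. Of 17 EGR, NR4A and DUSP genes 10 rose and 2 fell, with a median of 0.67. Without Unstimulated replicate 2, 7 rose and 5 fell, and without CD3_CD28 replicate 1 or 2 the counts were 8 and 1, and 7 and 1. Nr4a3, an orphan nuclear receptor, rose from 32.5, 28.5 and 35.5 CPM to 277, 608 and 441 CPM and Dusp4, a MAP kinase phosphatase, from 3.20, 2.08 and 6.86 CPM to 193, 207 and 196 CPM. Ier3, a stress-inducible gene, rose by 4.30 ± 0.39, and Dusp10 fell by 1.10 on the log2 scale. Of 17 NF-kB genes 12 rose and 1 fell, with a median of 0.86. Nfkb2, the subunit of the alternative pathway, rose from 52.5, 46.4 and 55.4 CPM to 276, 437 and 323 CPM and Rel, the subunit c-Rel, from 65.8, 64.6 and 63.1 CPM to 159, 328 and 221 CPM. Nfkbie, an inhibitor, was called lower at -0.47 ± 0.18, a call lost without Unstimulated replicate 1 or 2 or without CD3_CD28 replicate 1 (limma adjusted p = 0.0686, 0.11 and 0.121).

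Of the 33 secreted cytokine and chemokine genes in the table, 16 passed the filter. Of these 16, 11 rose and 3 fell, with a median of 1.91, and members that passed only because they are high in a stimulated group had to differ. Lif (chromosome 11, 4257557 to 4272514, plus strand, protein-coding), a cytokine of the interleukin-6 family, was at 0.266, 0.0364 and 1.17 CPM in the Unstimulated libraries and 183, 117 and 151 CPM in the CD3_CD28 libraries, a difference of 6.71 ± 0.27 on the log2 scale (limma adjusted p = 3.31e-10). Il24, a cytokine of the interleukin-10 family, went from 0.0444, 0 and 0.0434 CPM to 105, 20.9 and 43.7 CPM. Among its CD3_CD28 libraries replicate 1 was highest and replicate 2 lowest. Tnfsf14, the ligand LIGHT, rose from 2.98, 1.49 and 1.82 CPM to 41.9, 34.4 and 41.2 CPM. Il16 fell from 519.5, 548 and 377 CPM to 149, 169 and 154 CPM. Il2, the growth factor of activated T cells, stayed below the level tested, at 0.0905, 0 and 0 CPM and 1.61, 3.48 and 3.33 CPM. Il4 was at 7.12, 0.448 and 2.12 CPM, Il13 at 29.4, 3.76 and 11.5 CPM and Il21 at 17.9, 1.39 and 4.88 CPM in CD3_CD28 cells, again with replicate 1 highest and replicate 2 lowest. In the Unstimulated libraries Il4 was at 0.222, 0 and 0 CPM and Il21 at 0.488, 0.146 and 0.261 CPM, and Il13 was listed at 0. Ifng, the interferon gamma gene, was at 0.440, 0.0729 and 1.13 CPM and 2.42, 0.582 and 1.29 CPM, with groups that overlap.

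The promoters of 2 induced ligand genes are shown because cytokine promoters are classical sites of NFAT and AP-1. They were taken from RefSeq (GRCm38.p6) as the 250 bases before the annotated start, written 5′ to 3′ along the gene's strand. Of the 13 tested cytokine genes with such a promoter, 11 held the NFAT core GGAAA on either strand, 84.6%, against 54.7% of the 7402 tested genes with a promoter and 55.6% of all 32851 promoters. The AP-1 site TGANTCA, searched on both strands, was in 3 of the 13, 23.1%, against 3.72% and 6.75%, and 1 of the 3 is Il16, which fell. A match describes the sequence and is not a bound site. A promoter was printed only if it starts within 50 bases of the start in the deposited table and touches no annotated exon. Lif, the largest rise of the list, holds both motifs but did not meet these rules. Tnfsf14 also holds the NFAT core, and among the genes that meet the rules Lta is the next by rise that holds it. Capitals mark the AP-1 match in Tnfsf14, 160 to 154 bases before the start, and the 2 NFAT core matches in Lta, 213 to 209 and 17 to 13 bases before it.
Tnfsf14, chr17:57194182-57194431, minus strand: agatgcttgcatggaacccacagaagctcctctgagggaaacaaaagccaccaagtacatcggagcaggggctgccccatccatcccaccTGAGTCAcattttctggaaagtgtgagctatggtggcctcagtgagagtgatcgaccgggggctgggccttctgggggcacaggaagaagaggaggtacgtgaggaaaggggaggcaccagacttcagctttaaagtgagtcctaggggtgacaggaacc
Lta, chr17:35205352-35205601, minus strand: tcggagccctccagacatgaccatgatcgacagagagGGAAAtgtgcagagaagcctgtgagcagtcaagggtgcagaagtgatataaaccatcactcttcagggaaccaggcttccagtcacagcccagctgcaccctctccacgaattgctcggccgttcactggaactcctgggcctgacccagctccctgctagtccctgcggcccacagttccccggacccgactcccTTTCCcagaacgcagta
Lta, which encodes lymphotoxin alpha and was named for its promoter, rose from 12.7, 15.7 and 12.1 CPM to 189, 163 and 211 CPM, so that both genes shown were higher in every CD3_CD28 library than in any Unstimulated one.

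Receptors for cytokines moved in both directions. Of 23 cytokine receptor genes 7 rose and 12 fell, with a median of -0.36, or -0.55 without Unstimulated replicate 3. Besides Il12rb2 and Il2ra, Il2rb, the shared chain of the interleukin-2 and interleukin-15 receptors, rose from 151, 85.6 and 114 CPM to 1233, 1148 and 1242 CPM. Il7r (chromosome 15, 9505788 to 9530176, minus strand, protein-coding), the receptor chain for the survival cytokine interleukin-7, was at 966, 667 and 535 CPM in the Unstimulated libraries and 229, 184 and 187 CPM in the CD3_CD28 libraries, a difference of -1.81 ± 0.25 on the log2 scale (limma adjusted p = 2.76e-05). Il6ra, the interleukin-6 receptor, fell from 482, 544 and 468 CPM to 41.6, 35.2 and 36.8 CPM, and Il18r1, an interleukin-18 receptor chain, from 46.0, 40.9 and 47.0 CPM to 0.703, 2.06 and 2.08 CPM. The groups of these 4 genes did not overlap. Among 24 genes of STAT signalling, its SOCS inhibitors and the interleukin-2 response, 17 rose and 4 fell, with a median of 1.36. Cish, a feedback inhibitor that STAT5 induces, rose from 22.7, 14.7 and 21.3 CPM to 421, 468 and 434 CPM, and the kinase gene Jak1 fell from 1663, 1649 and 1674 CPM to 439, 552 and 512 CPM.

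Helper lineage genes moved in several directions. Tbx21, the TH1 factor T-bet, rose from 5.55, 2.48 and 2.61 CPM to 25.4, 18.04 and 21.8 CPM, and Gata3, the TH2 factor, from 62.1, 63.7 and 70.9 CPM to 204, 144 and 169.8 CPM. Runx3 rose by 1.62 ± 0.15. Of 9 TH1 genes tested, 4 rose and 3 fell, beside 36.1% and 39.1% of all genes, with a median of 0.81. The largest fall of this list was that of Il18r1 at -4.18. Of 10 TH2 genes 7 rose and 2 fell, with Nfil3, a basic leucine zipper factor, and Ccr8, a chemokine receptor, up by 5.37 ± 0.41 and 5.13 ± 0.19, and Maf, a factor of interleukin-4 transcription, at -2.78 ± 0.49, or -3.37 without CD3_CD28 replicate 1. Without that library or Unstimulated replicate 3, 1 of the 10 fell. Of 13 follicular helper genes 2 rose and 6 fell. Bcl6, the repressor that defines follicular helper cells, went from 37.1, 28.0 and 28.7 CPM to 5.06, 6.58 and 4.94 CPM, a difference of -2.30 ± 0.24 on the log2 scale (limma adjusted p = 1.75e-06). Of 3 TH17 genes tested, Rora and Batf rose and Ccr6 fell, and the Ccr6 call was lost without Unstimulated replicate 1 or CD3_CD28 replicate 1 or 3 (limma adjusted p = 0.0771, 0.0506 and 0.0501), and with 5 CPM added in place of 1, where its change was -0.49 in place of -1.42 (limma adjusted p = 0.277).

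Genes of regulatory T cells did not move together with their defining factor. Of 14 tested, 9 rose and 3 fell, with a median of 2.65. Foxp3 was among those that fell, from 45.1, 30.2 and 45.4 CPM to 2.86, 4.53 and 5.22 CPM, a difference of -2.99 ± 0.55 on the log2 scale (limma adjusted p = 0.000571). Every CD3_CD28 value was below the lowest Unstimulated one. The rises included Il2ra, Ctla4 and Tnfrsf18, the receptor GITR, at 3.63 ± 0.12, all of which activated T cells express as well. Genes of cytotoxic granules moved in both directions. Of 10 tested, 5 rose and 4 fell, beside 36.1% and 39.1% of all genes. Serpinb6b, a granzyme-inhibiting serpin, rose from 14.7, 11.3 and 10.3 CPM to 759, 870.0 and 815 CPM. Prf1, the pore-forming protein perforin, fell from 64.9, 56.0 and 57.7 CPM to 8.35, 5.15 and 6.12 CPM.

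Most cell cycle genes rose. All 30 mitosis genes listed passed the filter, 27 of them only with stimulated libraries, and all 30 rose, with a median of 4.20. With no filter 30 of 30 rose too. Of 32 DNA replication genes 25 rose and none fell (0 lower at limma's adjusted threshold, 2 under quantile normalization), with a median of 1.42. Mki67 (chromosome 7, 135689784 to 135716361, minus strand, protein-coding), a marker of proliferating cells, was at 47.5, 25.9 and 52.6 CPM in the Unstimulated libraries and 609, 1058 and 908 CPM in the CD3_CD28 libraries, a difference of 4.35 ± 0.26 on the log2 scale (limma adjusted p = 3.17e-08). Its lowest CD3_CD28 value, in replicate 1, was still far above the highest Unstimulated one. Ube2c, a ubiquitin-conjugating enzyme that works with the anaphase-promoting complex, rose from 3.37, 1.13 and 3.35 CPM to 97.1, 147 and 122 CPM. Bub1, a spindle checkpoint kinase, rose from 1.29, 0.255 and 2.43 CPM to 61.1, 97.8 and 71.7 CPM. Mcm10, a replication initiation factor, rose from 2.22, 0.692 and 2.04 CPM to 29.6, 40.5 and 48.9 CPM, Cdc45, a helicase component, from 2.31, 3.17 and 4.08 CPM to 30.1, 51.8 and 44.4 CPM, and Pole, a replicative polymerase subunit, from 12.8, 8.34 and 9.34 CPM to 74.3, 116 and 123 CPM. CD3_CD28 replicate 1 was the lowest of its group in each of these 6 genes. Of 23 cell cycle control genes 18 rose and 1 fell, or 2 without CD3_CD28 replicate 2, with a median of 1.28. Cdk6, a kinase of the first growth phase, rose from 34.5, 26.9 and 27.8 CPM to 485, 371 and 538 CPM, and Rbl2, a pocket protein of quiescent cells, fell from 178, 179.6 and 169 CPM to 85.8, 96.6 and 93.7 CPM. Cdkn1a (chromosome 17, 29090976 to 29100727, plus strand, protein-coding), which encodes the cyclin-dependent kinase inhibitor p21, rose beside them from 0.400, 0.364 and 0.695 CPM to 274, 248 and 269 CPM, a log2 fold change of 7.48 ± 0.21.

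Promoters of a replication and a mitosis gene are shown because these lists moved together. The E2F site TTTNNCGC, on either strand, was in 7 of 27 DNA replication promoters, 25.9%, against 7.86% of tested genes and 4.28% of all promoters. The cell cycle homology region, read as TTTGAA on either strand, was in 9 of 26 mitosis promoters, 34.6%, against 10.4% and 16%. Each promoter printed here belongs to the member with the largest called rise whose window holds the match, starts within 50 bases of the start in the deposited table and touches no annotated exon. Capitals mark 3 E2F matches in Mcm6, a helicase subunit, of which the first, at 110 to 103 bases before the start, overlaps the second at 106 to 99, and 2 matches in Top2a, a topoisomerase, at 179 to 174 and 23 to 18.
Mcm6, chr1:128359706-128359955, minus strand: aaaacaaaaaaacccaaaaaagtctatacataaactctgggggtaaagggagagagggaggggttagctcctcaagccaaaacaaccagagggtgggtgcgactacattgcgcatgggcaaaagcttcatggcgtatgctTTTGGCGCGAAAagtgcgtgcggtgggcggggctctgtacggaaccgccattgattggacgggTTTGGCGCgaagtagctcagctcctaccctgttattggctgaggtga
Top2a, chr11:99024190-99024439, minus strand: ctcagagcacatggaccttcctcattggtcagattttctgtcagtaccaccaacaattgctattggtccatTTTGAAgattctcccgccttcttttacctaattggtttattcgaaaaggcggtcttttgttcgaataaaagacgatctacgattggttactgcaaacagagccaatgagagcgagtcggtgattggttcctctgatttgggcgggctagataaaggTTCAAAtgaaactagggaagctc
Mcm6 rose from 110.3, 103 and 117 CPM to 287, 352 and 386 CPM and Top2a from 36.3, 22.8 and 41.0 CPM to 734, 1259 and 973 CPM, with no overlap between the groups in either gene.

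Glycolysis genes rose as a list, which also holds the hypoxia response genes Hif1a and Egln3. Of 27 tested 25 rose and none fell (0 lower at limma's adjusted threshold), with a median of 2.76. Slc2a3, a glucose transporter, was at 64.6, 59.1 and 51.1 CPM in the Unstimulated libraries and 2062, 2298 and 1849 CPM in the CD3_CD28 libraries. Hk2, the inducible hexokinase, rose from 4.80, 2.11 and 2.39 CPM to 454, 455 and 465 CPM, a difference of 6.86 ± 0.45 on the log2 scale (limma adjusted p = 2.32e-07). Pkm, pyruvate kinase, rose from 389, 398 and 394 CPM to 2483, 2822 and 2714 CPM, Ldha, lactate dehydrogenase, from 279, 292 and 282 CPM to 1694, 2075 and 1875 CPM and Slc16a3, a lactate exporter, from 3.69, 2.34 and 2.52 CPM to 297, 325 and 296 CPM. Aldoc, a further aldolase, rose by 6.51 ± 0.48. Each of these 6 genes was higher in every CD3_CD28 library than in any Unstimulated one. Egln3 (chromosome 12, 54178981 to 54203860, minus strand, protein-coding), an oxygen-dependent prolyl hydroxylase that marks hypoxia-inducible factors for degradation and is itself their target, rose from 2.31, 2.33 and 2.09 CPM to 868, 785 and 806 CPM, or 365-fold in the means.

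The core of the hypoxia response element, ACGTG, which is also contained in the E-box CACGTG, was in 12 of 26 glycolysis promoters on either strand, 46.2%. It was in 23.2% of tested genes and 16.6% of all promoters. Because the list includes genes of the hypoxia response itself, its share partly restates how it was chosen. All 12 of these genes rose, as did 24 of the 26 with a promoter: Bnip3, Egln3, Hif1a, Hk2, Ldha, Pfkfb3, Pfkm, Pgam1, Pgk1, Slc16a1, Slc16a3 and Slc2a1 hold the core. The promoter of Egln3 is shown with its match in capitals, 229 to 225 bases before the start.
Egln3, chr12:54203875-54204124, minus strand: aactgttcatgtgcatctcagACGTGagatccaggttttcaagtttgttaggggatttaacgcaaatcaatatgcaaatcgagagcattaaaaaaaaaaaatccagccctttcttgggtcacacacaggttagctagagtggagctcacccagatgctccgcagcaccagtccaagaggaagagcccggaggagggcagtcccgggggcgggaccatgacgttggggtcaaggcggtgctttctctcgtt

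Cholesterol and fatty acid synthesis rose with nearly every gene. Of 31 tested 29 rose and 1, the isomerase gene Ebp, fell, with a median of 2.02. Scd2, a fatty acid desaturase, went from 102, 128 and 77.4 CPM to 2447, 2373 and 2454 CPM. Fads2, a desaturase of polyunsaturated fatty acids, rose from 0.444, 0.656 and 0.869 CPM to 51.3, 50.4 and 60.0 CPM, a difference of 5.06 ± 0.18 on the log2 scale (limma adjusted p = 1.19e-10). Stard4, a carrier of cholesterol, rose from 33.7, 35.6 and 33.7 CPM to 320.2, 299 and 312 CPM. The sterol exporters moved the other way: Abca1 fell from 63.0, 44.6 and 37.2 CPM to 5.36, 4.92 and 5.26 CPM and Abcg1 from 148, 152 and 111 CPM to 22.6, 40.3 and 33.7 CPM. Mylip, which marks the low-density lipoprotein receptor for degradation, fell by 3.80 on the log2 scale. These 3 belong to a list of sterol efflux and fatty acid oxidation genes of which 7 of 15 fell and 4 rose, Acadl, an enzyme of fatty acid oxidation, by 1.27 ± 0.09. Abca1 is also expressed by macrophages, whose markers fell in the same comparison, and their part in its fall was not tested.

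The sterol regulatory element, searched as TCACNCCAC on both strands, was in 1 of 21 promoters of this synthesis list, 4.76%, against 0.946% of tested genes and 1.05% of all promoters. That gene was Hmgcs1, which makes the precursor of mevalonate, and its promoter is shown with the match in capitals, 137 to 129 bases before the start.
Hmgcs1, chr13:119690101-119690350, plus strand: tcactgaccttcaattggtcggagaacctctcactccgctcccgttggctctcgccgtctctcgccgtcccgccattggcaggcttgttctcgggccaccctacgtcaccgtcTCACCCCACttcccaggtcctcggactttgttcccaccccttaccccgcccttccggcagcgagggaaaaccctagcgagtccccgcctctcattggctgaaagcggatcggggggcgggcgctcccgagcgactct
Hmgcs1 rose from 60.0, 77.8 and 48.8 CPM to 465, 356 and 518 CPM, a log2 fold change of 2.83 ± 0.20.

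Amino acid supply and translation also rose. Of 30 ATF4 target, serine and one-carbon genes 25 rose and none fell (0 lower at limma's adjusted threshold), with a median of 1.98. Asns, asparagine synthetase, was at 1.51, 0.729 and 2.13 CPM in the Unstimulated libraries and 134, 148 and 149.98 CPM in the CD3_CD28 libraries, a difference of 5.92 ± 0.23 on the log2 scale (limma adjusted p = 2.45e-10). Trib3, a pseudokinase of the stress response, rose from 3.42, 2.70 and 3.48 CPM to 72.8, 81.2 and 72.8 CPM, and Cth, which makes cysteine, from 0.133, 0 and 0 CPM to 21.8, 18.9 and 20.0 CPM. Of 19 tRNA synthetase genes 17 rose and 1 was called lower, with a median of 1.27. Cars rose from 22.4, 22.4 and 27.9 CPM to 134, 159.9 and 148 CPM and Iars by 2.04 ± 0.12. Wars, the interferon-inducible tryptophanyl enzyme, was called lower at -0.36 ± 0.13 with overlapping groups, a call lost without Unstimulated replicate 2 or CD3_CD28 replicate 1 or 2 (limma adjusted p = 0.0686, 0.0674 and 0.114). Of 27 translation factors 16 rose and 5 fell (14 and 3 without CD3_CD28 replicate 2), with Eif4ebp1, a translational repressor under mTOR, up by 4.19 ± 0.26 and Sesn1, an mTOR inhibitor, at -1.38.

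Ribosome genes moved less. Of 29 ribosomal protein genes 14 rose and 5 fell, with a median of 0.19, and Rps2 rose from 516, 557 and 577 CPM to 1165, 1269 and 1197 CPM. Without CD3_CD28 replicate 1, 17 ribosomal protein genes rose and 3 fell, with a median of 0.29, and without Unstimulated replicate 3 the counts were 14 and 3. Of 29 ribosome biogenesis genes 6 rose and 6 fell, with a median of -0.03. The nucleolar genes Npm1 and Ncl rose by 1.91 ± 0.14 and 1.27 ± 0.07, and Utp20, of the small subunit processome, was at -1.26 ± 0.25. Of 24 nucleotide synthesis genes 8 rose and 7 fell, beside 36.1% and 39.1% of all genes tested. Paics, of purine synthesis, was up by 1.37 ± 0.09. Of 12 polyamine genes 5 rose and 2 fell, or 4 and 1 without CD3_CD28 replicate 2 and 4 and 4 under quantile normalization. Odc1, the rate-limiting ornithine decarboxylase, went from 20.4, 17.2 and 20.8 CPM to 172, 250.3 and 192 CPM, and Smox, a spermine oxidase, from 13.4, 12.4 and 13.3 CPM to 110.0, 112 and 98.2 CPM.

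Mitochondrial genes showed small changes. Of 26 genes of the tricarboxylic acid cycle and its entry points 13 rose and 2 fell, with a median of 0.33, and of 29 respiratory chain genes 12 rose and 7 fell, with a median of 0.14. The latter median was 0.22 without CD3_CD28 replicate 1, 0.08 without CD3_CD28 replicate 2 and 0.04 under quantile normalization. Got1, a cytosolic aspartate transaminase, rose from 27.1, 29.6 and 31.9 CPM to 182, 220.3 and 186 CPM, whereas Ogdh, a subunit of the oxoglutarate dehydrogenase complex, fell from 323, 332 and 326 CPM to 149.7, 182 and 183 CPM. Atp5d, of ATP synthase, rose by 0.96 ± 0.08 and Ndufa1, of the first respiratory complex, was at -1.01 ± 0.15. Of 25 redox genes 11 rose and 7 fell, beside 36.1% and 39.1% of all genes tested. Mt1, a metal-binding metallothionein, rose from 1.82, 0.874 and 1.17 CPM to 121, 97.0 and 129 CPM, and Hmox1, a heme oxygenase that is also on the myeloid marker list, fell from 67.7, 35.0 and 26.1 CPM to 14.3, 12.8 and 11.2 CPM. Of 23 chaperone genes 14 rose and 3 fell, with Tcp1, of the chaperonin TRiC, rising from 246, 249.7 and 269.8 CPM to 1190.0, 1164 and 1189.9 CPM. Hsph1 was at 158, 164 and 461 CPM in the Unstimulated libraries and 75.1, 77.6 and 102 CPM in the CD3_CD28 libraries and was called lower at -1.43, with Unstimulated replicate 3 highest. The change was -0.93 without that library, and was not called with only these 6 libraries fitted (limma adjusted p = 0.0529).

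Survival genes and p53 targets rose side by side. Of 15 BCL2 family genes 10 rose and 3 fell, with a median of 0.70. Bcl2l1, which encodes the survival protein BCL-XL, was at 18.9, 19.8 and 18.4 CPM in the Unstimulated libraries and 186, 232 and 205 CPM in the CD3_CD28 libraries, a difference of 3.38 ± 0.13 on the log2 scale (limma adjusted p = 1.39e-10). Bcl2l2, another survival gene, rose from 1.79, 2.51 and 1.40 CPM to 28.3, 28.6 and 30.6 CPM, and Bcl2l11, which encodes the death protein BIM, fell from 99.0, 82.1 and 68.2 CPM to 45.2, 57.5 and 47.5 CPM. The groups of these 3 genes did not overlap. Of 21 p53 targets 15 rose and 3 fell, with a median of 1.24. Besides Cdkn1a, Perp, a membrane protein of the p53 response, rose from 0, 0.0364 and 0.0869 CPM to 17.2, 18.04 and 20.5 CPM and Plk2, a stress-responsive kinase, from 2.00, 1.06 and 11.1 CPM to 73.1, 87.6 and 101 CPM. The change of Plk2 was 4.37, and 5.14 without Unstimulated replicate 3. Btg2, an antiproliferative gene, fell from 205, 224 and 315 CPM to 62.5, 69.5 and 57.3 CPM.

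Genes of the resting, circulating T cell fell. Of 30 naive and quiescence genes 25 fell, 20 of them by at least 1 log2 unit, and 1 rose (2 without CD3_CD28 replicate 1), with a median of -1.53. Klf2 (chromosome 8, 72319033 to 72321656, plus strand, protein-coding), the Kruppel-like factor that maintains quiescence and drives homing genes, was at 359, 401 and 913 CPM in the Unstimulated libraries and 15.7, 24.7 and 24.7 CPM in the CD3_CD28 libraries, a difference of -4.52 ± 0.30 on the log2 scale (limma adjusted p = 1.06e-07). Unstimulated replicate 3 was high, and without it and CD3_CD28 replicate 1 the change was -3.89. Klf3 fell from 294, 333 and 303 CPM to 10.5, 26.9 and 18.7 CPM. S1pr1, the receptor by which T cells leave lymph nodes, fell from 642, 718 and 609 CPM to 31.9, 48.9 and 54.6 CPM. Tcf7, the factor TCF1 of naive and memory T cells, fell from 2368, 2411 and 2037 CPM to 329.8, 485 and 411 CPM. All 4 had a highest CD3_CD28 value below the lowest Unstimulated one. Ccr7, the lymph node chemokine receptor, was the 1 that rose, at 599.6, 661 and 510.4 CPM in the Unstimulated libraries and 620.3, 1021 and 793 CPM in the CD3_CD28 libraries. Its groups overlapped, and its call was lost without Unstimulated replicate 3 (0.34, limma adjusted p = 0.0831) and without CD3_CD28 replicate 2 (0.26, limma adjusted p = 0.0924).

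Related lists fell in part. Of 22 chemokine receptor and migration genes 14 fell and 6 rose, with Ccr9, a gut homing receptor, going from 15.5, 11.8 and 11.9 CPM to 0.0440, 0.179 and 0.157 CPM and Itga4, an integrin chain, from 668, 609 and 550.0 CPM to 97.6, 168 and 155 CPM. Of 14 GIMAP and Schlafen genes 11 fell and 3 rose (median -1.23), and Slfn8 went from 193, 197 and 158 CPM to 10.6, 17.3 and 18.7 CPM. Of 21 lineage factors 13 fell and 4 rose: Ets1 fell from 2922, 2926 and 2364 CPM to 894, 960.4 and 919 CPM and Bcl11b, which maintains T cell identity, from 526, 555 and 504 CPM to 142, 167 and 165 CPM. Of 22 FOXO and autophagy genes 11 fell and 6 rose, and Gabarapl1, of autophagosomes, was among the latter, going from 6.66, 3.97 and 4.61 CPM to 100.1, 64.3 and 84.8 CPM. Of 16 anergy genes 7 rose and 7 fell, near the 36.1% and 39.1% of all genes tested. Dtx1, a NOTCH-regulated ubiquitin ligase, fell from 367, 418 and 439.6 CPM to 9.28, 16.7 and 9.88 CPM, and Ndrg1, a further anergy gene, rose from 31.7, 29.2 and 29.2 CPM to 799.7, 1037 and 784 CPM. Of 20 structural and effector genes 15 rose and 4 fell, with Anxa2, a membrane-binding annexin, going from 25.8, 13.4 and 20.5 CPM to 745, 858 and 809 CPM.

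Interferon-inducible genes were among the steepest falls. Among 23 IRF and interferon response genes, 15 fell and 4 rose around a median of -0.87, and the rises were those of Irf4, Irf8, Igtp and Gbp2. Ifi208 (chromosome 1, 173673675 to 173698395, plus strand, protein-coding), of the interferon-inducible Ifi200 family, was at 165, 180.4 and 156 CPM in the Unstimulated libraries and 0.0440, 0.0448 and 0.157 CPM in the CD3_CD28 libraries, a difference of -7.28 ± 0.22 on the log2 scale (limma adjusted p = 1.55e-11). Its relative Ifi209 fell from 335, 365 and 287 CPM to 1.19, 7.31 and 7.50 CPM, Ifi206 from 218, 226 and 245 CPM to 0.220, 4.79 and 2.08 CPM, Ifi203 from 304, 282 and 323 CPM to 2.68, 13.2 and 9.92 CPM and Ifi213 from 68.8, 63.1 and 70.4 CPM to 0.176, 0.671 and 0.0392 CPM. Without CD3_CD28 replicate 1, the lowest library for Ifi203, Ifi206 and Ifi209, their changes were -4.61, -5.77 and -5.29 in place of -5.19, -6.37 and -5.94. Outside that family, Ifit3, an interferon-inducible gene, fell from 26.6, 25.0 and 27.5 CPM to 0.414, 1.92 and 1.46 CPM and Ifit1bl1 from 80.3, 86.7 and 57.4 CPM to 0.528, 1.88 and 2.27 CPM. Of 22 genes of MHC class I presentation and the proteasome 10 fell and 7 rose, near the 39.1% and 36.1% of all genes tested. H2-K1, a class I heavy chain, fell from 2427, 2451 and 2412 CPM to 889.7, 966 and 1119 CPM, while Tap1, a peptide transporter subunit, rose from 261, 246 and 229 CPM to 369, 547 and 457 CPM.

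The other named falls were Slc16a5, Art2b, Rflnb, Apoe, Trf and Amy2a4. Art2b, an ADP-ribosyltransferase of the T cell surface, went from 121, 137 and 83.1 CPM to 1.06, 1.52 and 3.22 CPM, Rflnb, a filamin-binding protein, from 354, 383 and 350.3 CPM to 9.63, 17.0 and 15.1 CPM and Slc16a5, a transporter of the monocarboxylate family, from 65.7, 68.5 and 49.7 CPM to 0.176, 0.627 and 0.353 CPM. Apoe, an apolipoprotein that macrophages make, went from 129, 57.8 and 34.8 CPM to 0.572, 0.313 and 0.471 CPM, and Trf, transferrin, from 99.6, 46.2 and 29.9 CPM to 0.264, 0.313 and 0.510 CPM. The myeloid sums of the Unstimulated libraries were 1015, 410 and 371 CPM, and an order shared over 3 libraries decides nothing. Amy2a4, an amylase, was listed at 0 in CD3_CD28 cells and at 79.2, 61.2 and 15.03 CPM in Unstimulated ones, low in replicate 3 like the pancreatic sum. Its fall is no support for a direction, since the filter fixed that of the pancreatic genes it resembles. The part of other cells in these 3 falls was not tested.

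Chromatin genes changed in both directions. Of 25 writers and erasers 12 rose and 4 fell, with a median of 0.18, or 0.28 without Unstimulated replicate 3 and 0.30 without CD3_CD28 replicate 3. Ezh2, the methyltransferase of Polycomb, rose from 28.1, 26.8 and 27.8 CPM to 207, 274 and 224 CPM, and Uhrf1, which maintains DNA methylation at replication, from 8.53, 5.43 and 10.9 CPM to 81.6, 96.8 and 117 CPM. Kmt2d, a histone methyltransferase of enhancers, fell from 859, 802 and 1033 CPM to 196, 205 and 276 CPM.

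The other stimulated groups share the Unstimulated libraries with this comparison, so differences from them were tested directly. Against CD3, 1837 genes were higher in CD3_CD28 (18.7%) and 4487 lower (45.7%). In CD3_CD28_ICOS, which also differs in the format of anti-CD3, 3787 genes were higher than in CD3_CD28 (38.5%) and 2403 lower (24.5%). Gzmb was at 313, 533 and 377 CPM in CD3 and 45.6, 71.3 and 30.6 CPM in CD3_CD28_ICOS libraries. It was higher in CD3_CD28 than in CD3 by 1.97 ± 0.32 (limma adjusted p = 0.000371), and the difference of CD3_CD28_ICOS minus CD3_CD28 was -5.05 ± 0.32. Cdkn1a was at 16.7, 22.9 and 14.7 CPM and 6.90, 12.04 and 6.07 CPM, and Asns at 45.1, 49.5 and 43.3 CPM and 22.6, 14.8 and 11.04 CPM. Both were highest in CD3_CD28, with differences of 3.81 ± 0.21 and 1.62 ± 0.23 from CD3. Of the 30 ATF4 target, serine and one-carbon genes 20 were higher in CD3_CD28 than in CD3 and 26 lower in CD3_CD28_ICOS than in CD3_CD28. Mki67 was at 1637, 1629 and 1677 CPM in CD3 and lower in CD3_CD28, with -0.98 ± 0.26 for CD3_CD28 minus CD3. All 32 DNA replication genes were lower in CD3_CD28 than in CD3.

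Some of the genes that fell differed between the stimulated groups. Ifi209 was at 159, 131 and 154 CPM in CD3 and 280.3, 188 and 284 CPM in CD3_CD28_ICOS cells, with -4.79 ± 0.44 for CD3_CD28 minus CD3 (limma adjusted p = 1.14e-05) and 5.53 ± 0.44 for CD3_CD28_ICOS minus CD3_CD28 (limma adjusted p = 2.59e-06). Bcl6 was at 64.5, 27.9 and 41.1 CPM and 108, 87.5 and 117 CPM, and lower in CD3_CD28 than in CD3, with -2.73 ± 0.24 for CD3_CD28 minus CD3. Nfatc1 was at 489.8, 443 and 408 CPM in CD3 and 351, 309 and 362 CPM in CD3_CD28_ICOS cells, higher in both than in CD3_CD28 (-0.79 ± 0.11 and 0.41 ± 0.11). Cd28 was lower in CD3_CD28 than in CD3 (-0.44 ± 0.10 for the same contrast). Il7r went the other way, higher in CD3_CD28 than in CD3 by 1.55 ± 0.25. As a list, the 30 naive and quiescence genes gave no more than the background against CD3, with 14 lower and 6 higher in CD3_CD28 beside 45.7% and 18.7% of all genes, whereas 24 were higher in CD3_CD28_ICOS than in CD3_CD28, beside 38.5%. The B cell marker list moves with these differences: all 14 tested members were lower in CD3_CD28 than in CD3 and higher in CD3_CD28_ICOS than in CD3_CD28. Cd79a was at 45.6, 45.7 and 88.8 CPM in CD3 and 109.6, 36.9 and 91.1 CPM in CD3_CD28_ICOS libraries, and the sums were 1478 to 2709 CPM and 1396 to 3154 CPM. The part of B cells in the differences between stimulated groups was not tested.

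**Figure D5:**
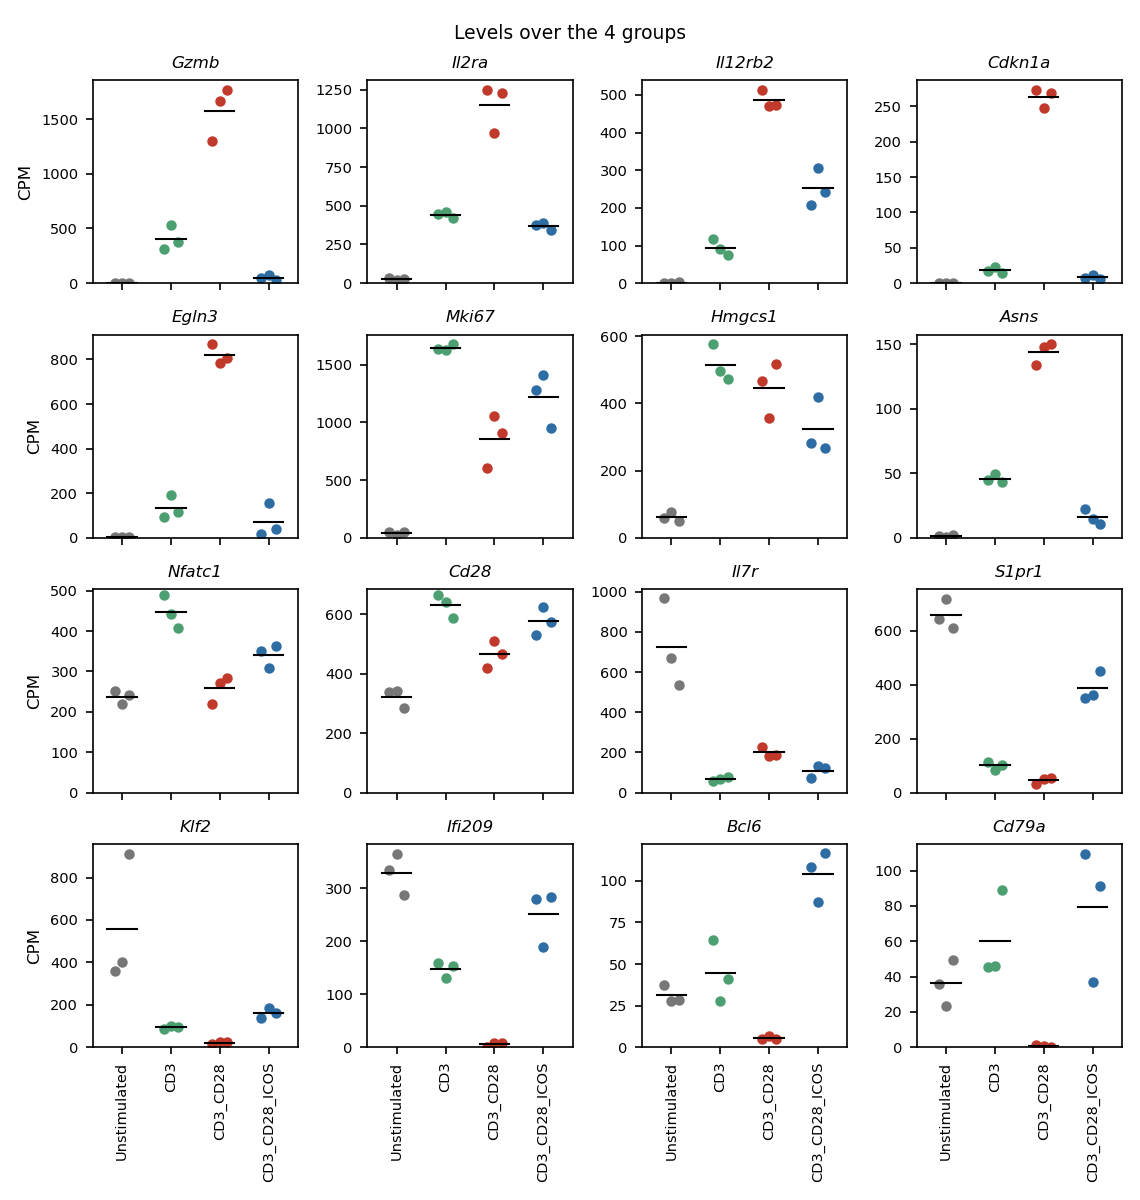
CPM of 16 genes in the 12 libraries by group, 1 point per library with the group mean as a bar; each y axis starts at 0 and has its own range. Gzmb, Cdkn1a, Egln3 and Asns are highest in the CD3_CD28 libraries, Mki67 is highest in CD3, and Ifi209 is lowest in CD3_CD28.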

How the data were processed

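Total RNA of the 12 libraries was harvested with a column kit and sequenced paired-end, per the labels' protocols. Partek version 10, DESeq2 and mm10 appear in the submitters' processing notes. No aligner, counting tool, annotation or strand setting is named in the sources used here. The authors deposited CPM values with 1e-04 added to every cell, which was removed here. A further table the authors deposited holds, for each of their comparisons, a log2 ratio, a p-value and a false discovery rate, used only for the counts of their calls. Of the values above 0.005 and up to 1.2 CPM, 75.3 to 79.5% lay within 0.02 reads of a whole number of reads, so no test on counts was run.

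limma 3.58.1 in R 4.3.3 was fitted to log2(CPM + 1) with 1 mean per group over all 12 libraries, with trend and robust estimation, two-sided, on genes at 10 CPM or more in 3 libraries, after tests on simulated data. The 55 lists of 1099 genes, the 39 genes always named and the members were chosen with earlier results of these data known. Named genes are the 15 largest called rises and falls with separate groups and a mean of at least 48.9 CPM in the higher group, the 10 largest in CPM, up to 4 called members per list, and the 39. Predicted genes, clones, segments, histones and other cell types' markers were left out of the first 2 kinds. Other genes named (for a promoter or motif, to complete a count, or as listed at 0, and Il13 and Itgax) were added after their values were seen. The deposited start matched GENCODE M21 for 9648 of 9690 genes matched by symbol, and the deposited stop lay 1 past the annotated end for 9630, so ends are given 1 lower. RefSeq promoters matched 7402 of the tested genes. Same-numbered libraries did not deviate together (r = 0.105, -0.0483 and -0.0428), so the numbers were not used to pair them. Alternatives covered pseudocounts of 0.1 and 5, the filter, scaling, the ribosomal RNA gene, the libraries fitted and each library left out. All per-sample columns were used.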

Additional observations from a re-analysis of the deposited data

How the results depend on the processing

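The counts of genes higher and lower stayed within 1.5 times of those reported under each alternative scaling, pseudocount and set of libraries. The exceptions came from the filter, which changes how many genes are tested: without it 6595 genes of 17203 were lower, and those lower by at least 1 log2 unit were 2414, or 2325 with a filter at 1 CPM. Leaving out 1 library at a time gave 3286 to 3659 genes higher and 3497 to 3874 lower, and 1550 to 1674 and 1327 to 1547 by at least 1 log2 unit. With a replicate block 3512 were higher and 3810 lower. No call turned to a call in the other direction in any alternative, and 6859 to 7379 of the 7391 calls were kept. Calls that were higher made up 48.0% as reported and 42.6 to 51.1% in the alternatives. The median of all genes moved from -0.04 to -0.0775 with quantile normalization and to 0.00153 with median-of-ratios factors. The medians of the inhibitory receptor, anergy and ribosome biogenesis lists, all near 0, changed sign in some settings (-0.185 to 0.341, -0.0489 to 0.266 and -0.159 to 0.0682 over those that kept the filter), and that of the AP-1 list did as given above. The cause of these shifts was not tested. Precision is limited by 3 libraries per group and, for values near 0, by reads worth 0.0365 to 0.0448 CPM.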

Other observations

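Genes below the level tested include several that CD3_CD28 cells express at low levels. Il5, a TH2 cytokine gene, was listed at 0 in the Unstimulated libraries and was at 12.1, 1.21 and 3.57 CPM in CD3_CD28. Csf2, the gene of the growth factor GM-CSF, was at 0, 0 and 0.0869 CPM and 5.28, 7.61 and 9.65 CPM, and Il3 was listed at 0 and was at 1.14, 1.03 and 1.88 CPM. Tnfrsf8, the receptor CD30, was at 0.488, 0.0364 and 0.174 CPM and 36.8, 8.01 and 19.2 CPM. Batf3, an AP-1 factor, was at 5.01, 1.25 and 2.24 CPM in CD3_CD28, and Fosl1 at 1.66, 0.667 and 1.88 CPM. Replicate 1, the library with 11.8% of reads from the ribosomal RNA gene, was highest for Il5, Tnfrsf8 and Batf3, and replicate 3 for Csf2, Il3 and Fosl1. Csf1, a growth factor of macrophages, was at 5.60, 2.15 and 4.996 CPM and 0.396, 0.358 and 0.275 CPM, and Xcl1, a chemokine, at 1.78, 1.78 and 1.69 CPM and 0.264, 0.403 and 0.314 CPM. Il17a was listed at 0 in all 6 libraries. These genes were not tested and were chosen after their values were seen.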
